A study of Mus musculus with 5 samples.

Results

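The whole testis cell suspension at 350.4 h was compared with that at 144 h, 1 library per time, to ask which genes come on as the first germ cells pass through meiotic prophase and which fade as somatic cells make up less of the suspension. Each library came from mouse testes that had been synchronized and taken at successive occurrences of the same epithelial stages (VIII to IX). The labels used here state no strain, age, synchronizing agent or number of animals per library. Capsule-free testes went through collagenase with DNase, repeated settling of the tubules with removal of the supernatant, and trypsin. Removing the supernatant takes away cells freed from between the tubules, so their levels depend on the preparation. All barcodes with at least 1000 unique molecular identifiers (UMIs) and under 50% mitochondrial UMIs were summed per library. They numbered 7144 of 9563 deposited barcodes at 144 h and 5376 of 7441 at 350.4 h, out of 41711 kept in all 5 libraries of the series. The 2 sums held 109525271 and 91496338 UMIs. Levels are UMIs of a gene scaled to 1000000 UMIs of the sum (CPM). With 1 library per time there is no replicate check: each ratio of CPM (350.4 over 144 h) carries an exact 95% interval for counting error only, and differences between animals or preparations are not covered.

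In the testis, spermatogonia enter meiosis when retinoic acid switches on Stra8. The chromosomes then break, pair along the synaptonemal complex and exchange strands during prophase, whose long pachytene stage brings on a large testis-specific programme of genes and silences the X and Y chromosomes. Round spermatids follow after the meiotic divisions, build the acrosome, and on elongating replace histones by transition proteins and protamines. Sertoli cells nurse the germ cells within the tubule, peritubular myoid cells wrap it, and Leydig cells, stromal fibroblasts, vessels and macrophages lie between tubules.

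The libraries differed in depth per barcode. Median UMIs were 12324 at 144 h and 6988 at 350.4 h, and barcodes with at least 5000 UMIs made up 74.1% and 53.6% of those kept but carried 96.4% and 94.6% of the UMIs. Mitochondrial genes took 10.1% and 8.49% of the sums. The libraries shared 19 barcode sequences, of which 12 passed the limits at both times, and the 350.4 h library shared 8 and 22 kept barcodes with the 556.8 and 763.2 h libraries.

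Of 27998 genes, 16816 had at least 50 UMIs in the library where they were higher and were compared. A gene was called where its whole interval lay beyond 2-fold. By this rule 3254 genes (19.4%) were higher at 350.4 h, 3390 (20.2%) were lower and 10172 were neither, with a median log2 ratio of -0.14. The 2 directions differed in size. The interval lay beyond 10-fold for 1594 higher but 144 lower genes, and beyond 100-fold for 262 higher genes and 1 lower gene, the granzyme Gzmc (4.19 CPM at 144 h and no UMI at 350.4 h), named after its value was seen. Among the compared genes, 477 had no UMI at 144 h and 11 had none at 350.4 h. The higher genes grew from 3.99% to 18.1% of all UMIs, and the lower genes shrank from 16.0% to 5.05%. In summed suspensions fewer cells of a type and less RNA per cell cannot be told apart.

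**Figure D1:**
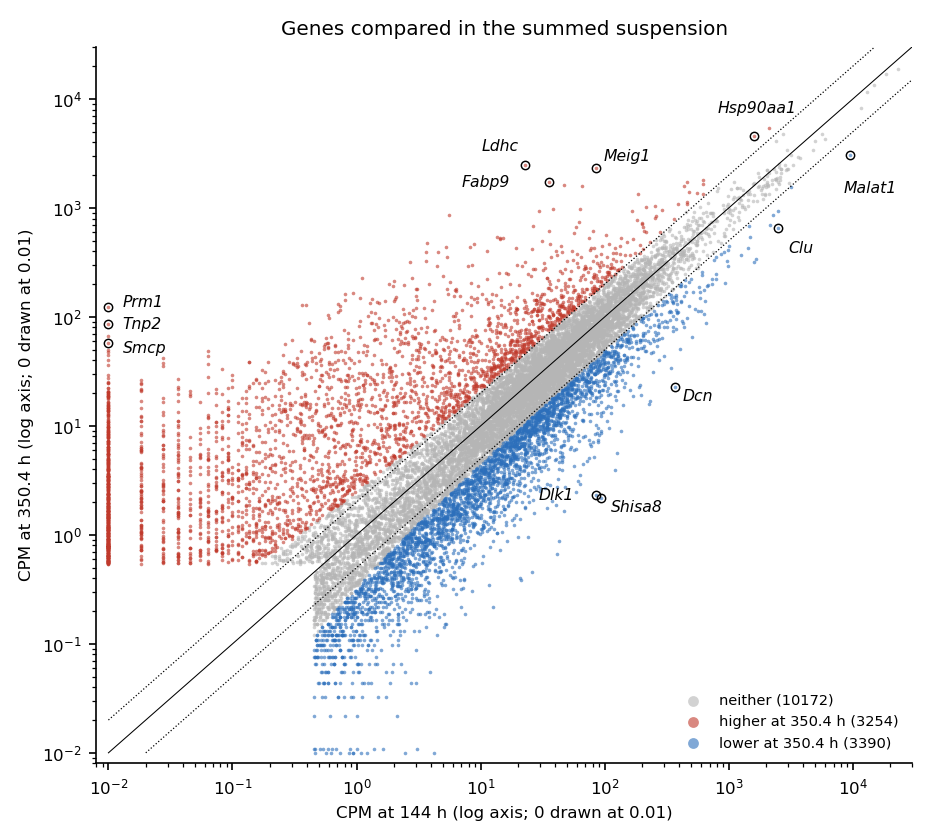
CPM of every compared gene at 144 h (x axis) and 350.4 h (y axis), both on log axes, with the line of equal level and dotted lines at 2-fold; red genes were called higher, blue genes lower and grey genes neither. A wide red field reaches from 0 UMIs at 144 h to over 2000 CPM at 350.4 h (Ldhc, Meig1), while the blue field lies closer to the diagonal.

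The largest rise in CPM was of the chaperone gene Hsp90aa1, which stood at 1612 and 4602 CPM (2.86-fold, interval 2.84 to 2.87). At 350.4 h, 78.4% of its UMIs came from barcodes with at least 3000 CPM of the pachytene genes listed below. Barcodes from 3000 to 10000 CPM held 6.75% of all UMIs, and those at or above 10000 CPM held 42.7%. Ldhc, the germ cell form of lactate dehydrogenase, stood at 22.8 CPM at 144 h and 2456 CPM at 350.4 h (108-fold, interval 103 to 112). Meig1, needed for building the sperm tail, stood at 85.9 and 2343 CPM (27.3-fold, interval 26.7 to 27.9). Fabp9, a testis fatty acid binding protein, stood at 35.3 and 1717 CPM (48.6-fold), and Cox8c, a testis form of a respiratory chain subunit, at 47.1 and 1637 CPM (34.7-fold). Rsph1, a radial spoke protein of cilia and flagella, stood at 65.9 and 1581 CPM (24.0-fold), and Tuba3b, a testis alpha-tubulin, at 465 and 1742 CPM (3.75-fold). The other 3 of the 10 largest rises were of genes in wide use. Their shares from the same barcodes at 350.4 h were 81.5% (Calm2), 72.6% (Ubb) and 55.6% (H3f3b). The calmodulin gene Calm2 stood at 615 and 1815 CPM (2.95-fold). Ubiquitin Ubb (2747 and 4772 CPM, 1.74-fold) and the histone gene H3f3b (2384 and 4118 CPM, 1.73-fold) were the other 2, and neither passed the 2-fold rule.

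Of the 15 largest ratios upward among genes of at least 50 CPM, the first 5 were of spermatid list or germline histone list genes and the other 10 were on no list. Protamine Prm1 had 0 UMIs at 144 h and 11366 at 350.4 h (124 CPM), 4535-fold higher when 3 counts stand in for 0, with an exact interval from 3688 upward. Transition protein Tnp2 (86.7 CPM, 3165-fold with the same 3 counts), protamine Prm2 (67.2 CPM, 2452-fold) and the spermatid linker histone gene Hils1 (50.1 CPM, 1829-fold) also had 0 UMIs at 144 h. Their exact intervals began at 2573, 1993 and 1487. Smcp, a protein of the sperm mitochondrial capsule, had 1 UMI at 144 h and 5326 at 350.4 h, a ratio of 6375 with an interval from 1144 to 251864. Below these came Cmtm2b (0.365 and 130 CPM, 357-fold), Kcnmb4os1 (0.265 and 56.6 CPM, 214-fold), Pebp4 (0.411 and 87.6 CPM, 213-fold) and Tcp10a (0.301 and 61.2 CPM, 203-fold). Pgam2, a glycolytic mutase of muscle and testis, stood at 1.11 and 226 CPM (202-fold), Hrasls5 at 0.813 and 163 CPM (200-fold), and the poly(A)-binding protein gene Pabpc2 at 0.712 and 132 CPM (185-fold). The small heat shock protein gene Hspb9 (0.803 and 143 CPM), Cmtm2a (0.931 and 165 CPM) and Rbakdn (5.51 and 853 CPM) closed the group at 178-, 177- and 155-fold.

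**Figure D2:**
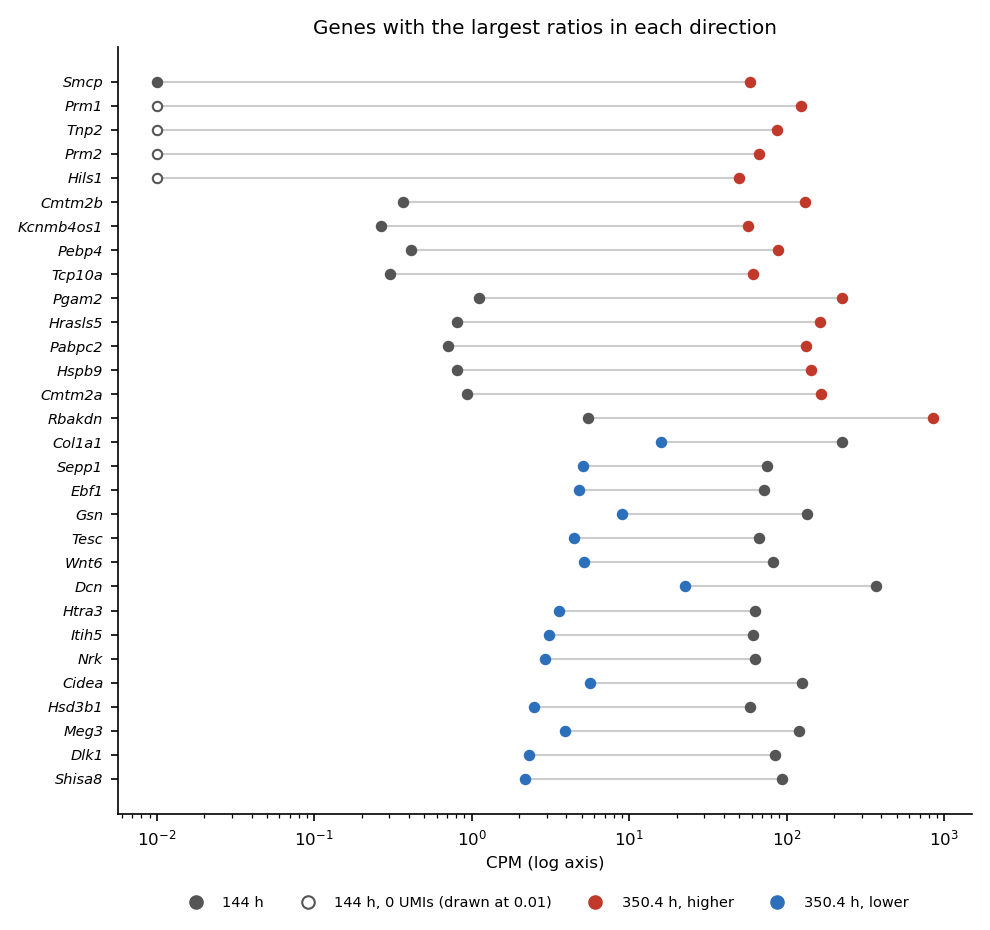
CPM at 144 h (grey; open where no UMI was seen) and 350.4 h (red or blue) on a log axis for the 15 genes with the largest ratios in each direction among genes of at least 50 CPM. The genes on top start at or below 5.51 CPM and end between 50.1 and 853 CPM; the genes below start between 58.6 and 369 CPM and end at or below 22.8 CPM.

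Genes of meiotic prophase were counted by list. Of 20 pachytene spermatocyte genes, 18 were higher and none was lower (background 19.4% higher, 20.2% lower), with a median log2 ratio of 3.99 and a summed level of 413 CPM at 144 h and 8797 CPM at 350.4 h. Hspa2, a testis chaperone, stood at 63.3 and 973 CPM (15.4-fold), the RNA-binding protein gene Ybx2 at 26.6 and 685 CPM (25.8-fold), and the chaperone Clgn of the endoplasmic reticulum at 25.8 and 423 CPM (16.4-fold). Psma8, the spermatocyte subunit of the proteasome, stood at 19.6 and 298 CPM (15.2-fold), and Hist1h1t, the testis linker histone, at 2.64 and 89.2 CPM (33.8-fold). Mybl1, the transcription factor A-MYB of pachytene cells, changed less (23.4 and 78.3 CPM, 3.34-fold), as did Tcfl5 (17.5 and 81.4 CPM, 4.66-fold). Of the Mybl1 UMIs, 55.1% at 144 h and 6.25% at 350.4 h came from barcodes with at least 10000 CPM of the Sertoli marker list. Calr3 (4.18 and 6.16 CPM) and Pou5f2 (3.63 and 6.10 CPM) were not called.

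The machinery of pairing and recombination had members called in both directions. Over all genes compared 19.4% were higher and 20.2% lower, and the 2 and 2 of 9 DNA break genes below are near that share. Stra8 was 504 CPM at 144 h and 65.8 CPM at 350.4 h, a ratio of 0.131 (interval 0.127 to 0.134), and it was the 1 gene called lower among 9 meiotic entry genes. Meioc, which with Ythdc2 keeps cells in meiosis, was called higher (105 and 257 CPM, 2.46-fold), and 7 were neither. Among 9 genes of meiotic DNA breaks, Prdm9, the methyltransferase that marks break sites, was lower (39.9 and 15.2 CPM, ratio 0.383), as was Mei4 (15.6 and 6.73 CPM, ratio 0.432). Spo11, the enzyme that cuts, was higher (4.16 and 35.5 CPM, 8.53-fold), as was Ankrd31 (46.9 and 121 CPM, 2.59-fold). Of 13 strand exchange and repair genes, 4 were higher and 1 lower (all genes 19.4% and 20.2%), among the higher ones Psmc3ip (50.0 and 324 CPM, 6.48-fold) and Meiob (7.39 and 42.2 CPM, 5.71-fold). The recombinase gene Dmc1 was lower (60.1 and 26.7 CPM, ratio 0.444).

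Structural genes of the synaptonemal complex were higher in 5 of 8 cases and lower in none, with a median log2 ratio of 1.24 (all genes -0.14). The counts that follow stand beside the same shares over all genes, 19.4% higher and 20.2% lower. Sycp1 of the transverse filaments stood at 478 and 1395 CPM (2.92-fold), Sycp2 of the lateral elements at 82.5 and 429 CPM (5.20-fold) and Sycp3 at 363 and 799 CPM (2.20-fold), while Syce2 of the central element was not called (248 and 169 CPM). Of 9 listed axis and cohesin genes 8 were compared, of which Hormad1 was higher (85.1 and 365 CPM, 4.29-fold), the cohesin gene Rad21l was lower (11.3 and 2.39 CPM, ratio 0.211) and 6 were neither. Crossover genes were higher in 5 of 11 cases, led by Cntd1 (14.5 and 143 CPM, 9.87-fold) and Msh4 (2.77 and 18.1 CPM, 6.55-fold); 6 were neither. Of 16 meiotic division genes 6 were higher and none was lower. Fbxo43, which restrains the division machinery, stood at 1.07 and 14.8 CPM (13.8-fold), the meiotic cyclin Ccna1 at 0.749 and 10.6 CPM (14.1-fold), and cyclin Ccnb1 was not called (97.3 and 95.4 CPM). Of 8 listed and 5 compared genes that tie telomeres to the nuclear envelope, Ccdc155 (KASH5) was higher (8.04 and 62.0 CPM, 7.71-fold), as was Ccdc79 (TERB1; 15.4 and 33.6 CPM, 2.18-fold).

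piRNAs are small RNAs that silence transposons in germ cells, and PIWIL1 carries those made at pachytene. Of 22 listed piRNA pathway genes 21 were compared, and 13 were higher and 1 was lower (all genes 19.4% and 20.2%). Piwil1 stood at 13.5 and 545 CPM (40.4-fold, interval 38.4 to 42.6), Tdrd6, a tudor protein of the chromatoid body, at 0.356 and 49.0 CPM (138-fold), Tdrd5 at 12.6 and 124 CPM (9.80-fold) and Tdrd1 at 35.4 and 214 CPM (6.04-fold). Piwil2 stood at 44.1 and 152 CPM (3.45-fold). Piwil4, the PIWI protein of fetal and stem germ cells, was lower (3.09 and 0.929 CPM, ratio 0.301).

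A-MYB binds sites of the MYB family, so promoter windows of the pachytene and piRNA lists were searched for GGCNGTTG on either strand. Windows of 300 bases (250 before to 50 after the RefSeq start, GRCm38.p6) held it in 4.48% of the 27025 genes of the table. They held it in 5.38% of the 12294 compared genes with a window, in 2 of 14 pachytene list genes and in 3 of 17 piRNA list genes. These small counts were not tested. These are the windows of the members with a match, all called higher; capitals mark the match. They lie at chr5:128735996-128736295 (Piwil1, plus strand), chr2:180642642-180642941 (Tcfl5, minus strand), chr4:45965085-45965384 (Tdrd7, plus strand) and chr11:59787608-59787907 (Pld6, minus strand).
Piwil1: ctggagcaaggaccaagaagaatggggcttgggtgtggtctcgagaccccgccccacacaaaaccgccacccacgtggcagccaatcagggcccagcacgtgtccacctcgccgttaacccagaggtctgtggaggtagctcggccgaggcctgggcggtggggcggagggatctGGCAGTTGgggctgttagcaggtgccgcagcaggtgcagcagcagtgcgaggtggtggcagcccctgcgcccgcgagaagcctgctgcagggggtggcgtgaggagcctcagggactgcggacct
Tcfl5: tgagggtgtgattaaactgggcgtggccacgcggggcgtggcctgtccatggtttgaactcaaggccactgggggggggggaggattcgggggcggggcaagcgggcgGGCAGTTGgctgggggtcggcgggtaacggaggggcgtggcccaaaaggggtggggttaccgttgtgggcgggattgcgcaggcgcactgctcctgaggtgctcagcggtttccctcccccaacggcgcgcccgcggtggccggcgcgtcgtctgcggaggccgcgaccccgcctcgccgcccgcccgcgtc
Tdrd7: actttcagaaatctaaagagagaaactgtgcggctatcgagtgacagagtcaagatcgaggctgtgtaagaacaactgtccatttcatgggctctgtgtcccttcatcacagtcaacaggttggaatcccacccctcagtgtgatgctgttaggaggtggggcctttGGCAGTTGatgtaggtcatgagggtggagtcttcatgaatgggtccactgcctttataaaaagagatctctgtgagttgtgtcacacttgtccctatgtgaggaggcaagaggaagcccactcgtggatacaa
Pld6: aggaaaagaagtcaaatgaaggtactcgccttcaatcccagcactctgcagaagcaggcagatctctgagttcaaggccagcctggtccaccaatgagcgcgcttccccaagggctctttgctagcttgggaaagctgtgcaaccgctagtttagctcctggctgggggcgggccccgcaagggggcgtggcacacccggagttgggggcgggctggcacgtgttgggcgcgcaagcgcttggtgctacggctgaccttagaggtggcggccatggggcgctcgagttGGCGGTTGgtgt
The match begins at base 176 of the window of Piwil1, 109 of Tcfl5, 168 of Tdrd7 and 289 of Pld6. Tdrd7, another tudor protein gene, was 2.62-fold higher (50.2 CPM at 350.4 h), and Pld6, a mitochondrial enzyme of piRNA making, stood at 17.4 and 56.8 CPM (3.27-fold). The same letters also occur in the window of Wnt6, which was lower. The table gave a window for 73.1% of the genes compared, under the 80% needed, so a comparison of motif shares between higher and lower genes is void. The other motifs searched were the STRA8-bound CNCCTCAG (9.12% of genes of the table), the cAMP response element TGACGTCA (2.03%), the RFX half-site GTTGCCAT (1.54%), the NR5A1 site CAAGGTCA (1.76%) and the SOX site ACAANGG (15.3%). In the 14 pachytene and 17 piRNA list genes, CNCCTCAG was found in 2 and 4 and ACAANGG in 5 and 2, so matches were not particular to the MYB site. The remaining motifs were found in none of them.

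Spermatogonial genes had negative medians on both lists, with members called in each direction. Over all genes compared 19.4% were higher and 20.2% lower (median -0.14), and the differentiating list below had smaller shares than these. Of 16 genes of undifferentiated spermatogonia 8 were lower, 1 was higher and 7 were neither, with a median log2 ratio of -1.40 (-0.69 when every barcode weighs the same). The GDNF receptor genes Gfra1 (3.92 and 0.896 CPM, ratio 0.229) and Ret (6.69 and 1.6 CPM, ratio 0.238) and the pluripotency factor Sall4 (27.4 and 10.8 CPM, ratio 0.393) were lower. Zbtb16 was not called (23.0 and 13.7 CPM). Id4, an inhibitor of basic helix-loop-helix factors, went the other way (11.4 and 84.9 CPM, 7.46-fold). Among 9 compared genes of 10 listed for differentiating spermatogonia, the cyclin Ccnd2 was lower (113 and 13.2 CPM, ratio 0.116), the transcription factor Dmrtb1 was higher (43.0 and 117 CPM, 2.73-fold) and 7, with the receptor Kit (47.0 and 41.8 CPM), were neither. Of 19 replication and mitosis genes, 18 were neither; Mki67 was higher (101 and 221 CPM, 2.18-fold). Of 10 genes shared by most germ cells, 7 were higher and none was lower, for example the helicase Ddx4 (151 and 487 CPM, 3.22-fold), while Dazl stood at 788 and 781 CPM.

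All 18 round spermatid genes compared were higher (median log2 ratio 7.41, and 8.1 when every barcode weighs the same). Of 15 elongating spermatid genes 14 were higher and Car2 was lower (median 7.61). Over all genes compared 19.4% were higher and 20.2% lower. The acrosomal Acrv1 had 4 UMIs at 144 h (0.0365 CPM) and 22.8 CPM at 350.4 h, a ratio of 625 with an interval from 244 to 2294. Acr, the acrosin protease, stood at 0.603 and 38.2 CPM (63.4-fold), Spata16 at 0.785 and 75.9 CPM (96.6-fold), and Tnp1 at 2.54 and 74.0 CPM (29.2-fold). Most of their UMIs at 350.4 h came from barcodes with at least 3000 CPM of the pachytene list. These shares were 91.7% (Acrv1), 95.4% (Acr), 96.3% (Spata16) and 87.8% (Tnp1). Whether these barcodes were spermatocytes or spermatids was not tested. The summed level of the elongating spermatid list was 6.79 CPM at 144 h and 545 CPM at 350.4 h. It was far higher in the later libraries, 32192 CPM at 556.8 h and 41377 CPM at 763.2 h.

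UMIs of the elongating spermatid list sat largely in few barcodes, which did not hold for all round spermatid genes. Of the 11366 Prm1 UMIs at 350.4 h, 3 barcodes held 4222, 1382 and 1195, together 59.8%, and without them the level was 50.0 CPM. For Tnp2, 3 barcodes held 51.9%. Over the elongating spermatid list, 33 of 5376 barcodes had at least 100 UMIs and held 67.4% of the list's UMIs; none of the 33 carried a sequence seen in another library. Without those 33 the list's median log2 ratio was 6.4 and that of the round spermatid list 6.89, and with every barcode weighing the same the elongating list stood at 10.7. Round spermatid genes ranged from 50% of their UMIs in 14 barcodes (Tssk2) to 50% in 199 (Crem), with Acrv1 at 30, Zpbp at 149 and Acr at 134. Ldhc had 50% in 133 barcodes at 350.4 h. At 144 h the 2501 Ldhc UMIs were in turn concentrated, with 50% in 4 barcodes. Counting intervals do not cover this clustering of UMIs in cells.

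**Figure D3:**
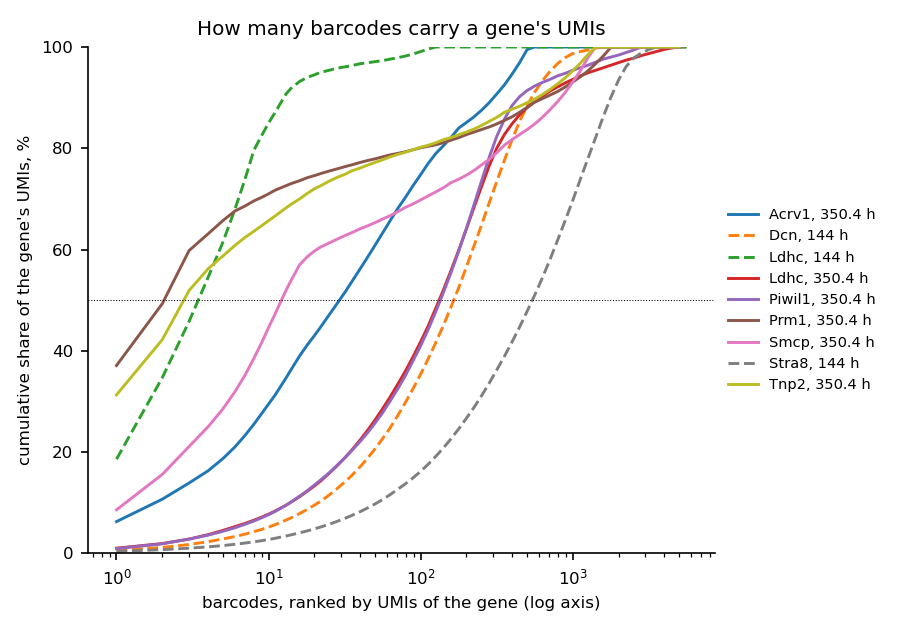
Cumulative share of a gene's UMIs (y axis, %) over barcodes ranked by their UMIs of that gene (x axis, log), solid at 350.4 h and dashed at 144 h, with a dotted line at 50%. Prm1 and Tnp2 at 350.4 h and Ldhc at 144 h cross 50% within 4 barcodes, Ldhc and Piwil1 at 350.4 h at 133 and 135 barcodes, and Stra8 at 144 h at 543.

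A single Prm1 UMI was common outside those barcodes. Prm1 was found in 1789 of 5376 barcodes (33.3%), but in only 44 with at least 10 UMIs. After each barcode was thinned to 1000 UMIs, 11.2% of all barcodes at 350.4 h (interval 10.4% to 12.1%, exact binomial) had a Prm1 UMI. The share was 14.2% among the 895 barcodes in which the Sertoli marker list reached 10000 CPM (median 2017 UMIs, against 6988 in all barcodes), cells that should lack protamine. A single Prm1 UMI is therefore not read as a sign of a spermatid. Where these UMIs came from was not tested, and doublets were not removed. Before thinning, 29.4% of the Sertoli-rich barcodes had a Prm1 UMI. For Ldhc at 350.4 h, 55.8% of all thinned barcodes (54.5% to 57.1%) had a UMI, and 91.7% before thinning. Among the Sertoli-rich ones, which are a part of these, the share was 53.4% (50.1% to 56.7%), and 88.3% before thinning. At 144 h the thinned shares were 0.350% and 0.108%. No Prm1 UMI was found in 7144 barcodes at 144 h, which allows a share of up to 0.042% of barcodes with a UMI. Stra8 went from 26.2% of thinned barcodes (25.2% to 27.3%) at 144 h to 6.44% (5.79% to 7.13%) at 350.4 h, beside 4.49% and 1.12% in Sertoli-rich barcodes (48.4% and 26.7% of all barcodes before thinning). Median UMIs at 144 h were 12324 in all barcodes and 9995 in Sertoli-rich ones. These binomial intervals take the barcodes of 1 library as independent and do not cover differences between animals or preparations.

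Barcodes were also ranged by the summed level of the 20 pachytene genes, with limits chosen after the values were seen. Levels of at least 10000 CPM were reached by 16 of 7144 barcodes at 144 h (0.889% of UMIs) and by 1464 of 5376 at 350.4 h (42.7% of UMIs). Levels from 3000 to 10000 CPM were reached by 19 and 1362 barcodes, with median UMIs of 26462 and 1500. Of these, 15 and 146 had at least 5000 UMIs. The median of the pachytene list in Sertoli-rich barcodes at 350.4 h was itself 2801 CPM. The limits mark ranges of a score, not types, and 551 barcodes at 350.4 h lay near the upper limit. The called higher genes took 24.5% of the UMIs of the 16 barcodes at 144 h and 32.2% of those of the 1464 at 350.4 h. The 144 h suspension as a whole gave them 3.99%. A high share follows in part from the choice of barcodes, because 18 of the 20 genes used were called higher. The 1464 barcodes also held 42.7% of the UMIs from which the calls were made. Fabp9, which is not on the list, had 92.4% of its UMIs at 144 h in the barcodes at or above 3000 CPM, and Rbakdn also had 92.4% there. At 350.4 h the shares were 97.3% and 97.0%.

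The X chromosome is silenced in pachytene cells, and its output was lower at 350.4 h. Of 680 X-linked genes compared, 252 (37.1%) were lower and 90 (13.2%) higher, with a median log2 ratio of -0.95, against 19.5% lower and 19.5% higher of 16054 autosomal genes (median -0.11). X-linked genes gave 3.25% of nuclear UMIs at 144 h and 1.55% at 350.4 h, and 3.37%, 0.742% and 0.944% at 0, 556.8 and 763.2 h. Without the 4 X-linked genes of the Sertoli marker list the shares at 144 and 350.4 h were 3.17% and 1.5%. The largest falls in CPM on the X were Tmsb4x, an actin-binding peptide (2136 and 698 CPM), Rhox8 (572 and 188 CPM) and Maged1 (519 and 171 CPM). At 144 h, 78.8% of the Tmsb4x and 95.7% of the Rhox8 UMIs came from barcodes with at least 10000 CPM of the Sertoli marker list. How much of the lower X share came with the fall in Sertoli UMIs was not tested. X-linked genes that were higher included the testis genes Cypt1 (1 UMI at 144 h and 1604 at 350.4 h), Akap4 of the fibrous sheath (0.0639 and 12.5 CPM, 195-fold), Tsga8 (0.676 and 55.1 CPM, 81.6-fold) and Slxl1 (0.657 and 32.3 CPM, 49.1-fold). These X-linked genes were picked after their values were seen. On the Y, 14 of 28 genes compared were higher and 3 lower, while the Y share of nuclear UMIs was 0.0404% at 144 h and 0.0269% at 350.4 h.

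Among barcodes of at least 5000 UMIs at 350.4 h, the X share was 2.85% where the pachytene list was under 1000 CPM (1659 barcodes), 0.658% from 3000 to 10000 CPM (146 barcodes) and 0.151% at or above 10000 CPM (635 barcodes). The per-barcode medians were 2.41%, 0.290% and 0.0791%. The few barcodes in the upper ranges at 144 h had X shares of 0.461% (15 barcodes) and 0.260% (13 barcodes), against 3.27% under 1000 CPM (5253 barcodes). Sertoli-rich barcodes had the highest share, 4.58% at 144 h and 5.02% at 350.4 h. At 144 h, 30 barcodes had an X share under 1% without reaching 3000 CPM of the pachytene list, and in 29 of them haemoglobin and other red blood cell genes made up at least 50% of UMIs.

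**Figure D4:**
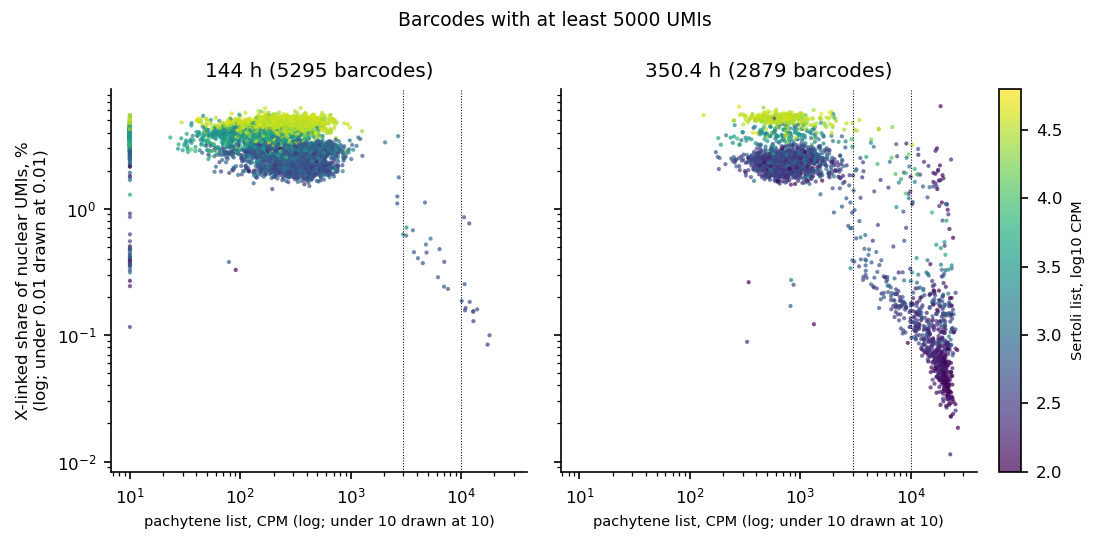
X-linked share of nuclear UMIs (y axis, %, log) against the level of the pachytene list (x axis, CPM, log) for each barcode of at least 5000 UMIs at 144 h (left, 5295 barcodes) and 350.4 h (right, 2879 barcodes), coloured by the Sertoli list; dotted lines mark 3000 and 10000 CPM. Most barcodes lie between 1% and 6%; a limb running down to below 0.1% at high pachytene level holds few barcodes at 144 h and many at 350.4 h.

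Several X-linked genes have testis-expressed copies elsewhere that work in spermatocytes. Of 10 listed copies 8 were compared, of which 5 were higher and none was lower (all genes 19.4% higher and 20.2% lower). However, 1 of the 8, Nxf2, itself lies on the X (153 and 86.6 CPM). Pgk2, the copy of a glycolytic kinase, stood at 0.183 and 31.5 CPM (173-fold), Cetn1, a centrin, at 4.53 and 397 CPM (87.6-fold) and Pdha2 of pyruvate dehydrogenase at 14.6 and 189 CPM (13.0-fold). Of 9 X-linked parents 3 were lower and 6 neither, which is near the 37.1% lower of all X-linked genes compared. Their median log2 ratio was -0.68, against -0.95 for all X-linked genes. Pdha1 stood at 24.5 and 6.99 CPM (ratio 0.286), Rpl10 at 756 and 333 CPM (ratio 0.440) and Cetn2 at 75.3 and 38.8 CPM (not called). Parent and copy are similar in sequence, so how the counting shared their reads is uncertain.

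Testis and somatic forms of the same enzymes were also counted. Of 24 such genes 12 were higher, 7 lower and 5 neither (all genes 19.4% higher and 20.2% lower). Cox6b2 (61.8 and 741 CPM, 12.0-fold) and Cyct, the testis cytochrome c (40.9 and 368 CPM, 8.98-fold), were higher, and somatic Cycs was lower (968 and 326 CPM, ratio 0.337). Ldhb was lower (792 and 221 CPM, ratio 0.279), Ldha was higher (64.9 and 357 CPM, 5.50-fold), and Aldoa was lower (373 and 95.6 CPM, ratio 0.256). The glucose transporter Slc2a3 was higher (8.59 and 298 CPM, 34.7-fold) and Slc2a1 lower (14.9 and 5.30 CPM, ratio 0.357). Of 11 germline histone genes 7 were higher, among them the testis H2B gene Hist1h2ba (13.5 and 102 CPM, 7.54-fold) and H2afx, whose product marks the silenced sex chromosomes (95.1 and 231 CPM, 2.43-fold).

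**Figure D5:**
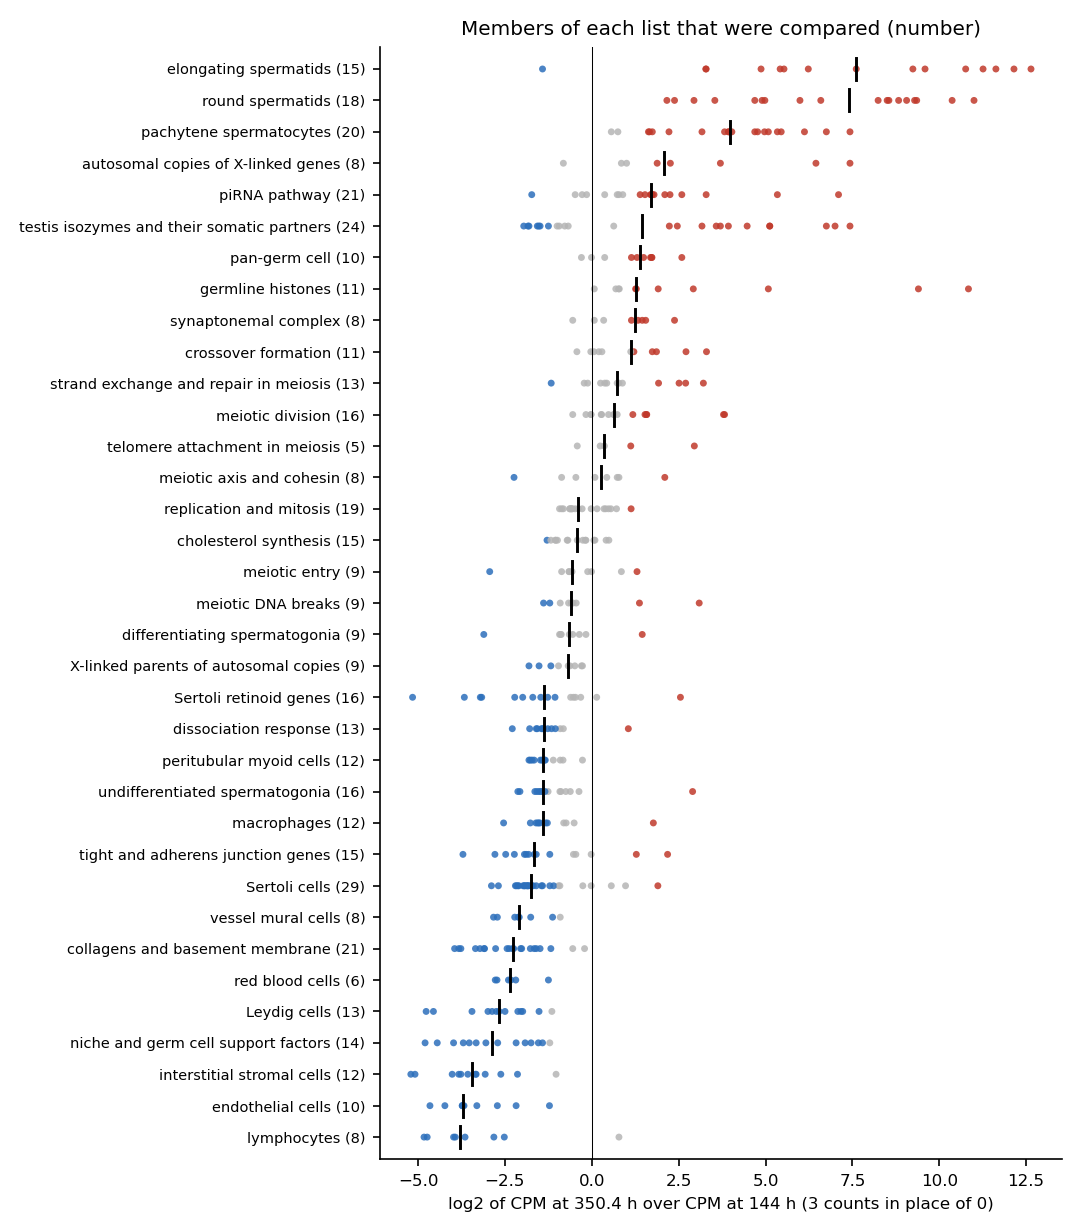
log2 ratio of each compared member (points) and the median (black bar) for the 35 lists, in order of median; red members were called higher, blue lower and grey neither, and the number compared stands in brackets. Spermatid and pachytene lists lie to the right (medians from 3.99 to 7.61), meiotic entry, DNA break and spermatogonial lists below 0, the synaptonemal complex list at 1.24, and somatic lists to the left, down to -3.79.

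On the other side stood genes of somatic cells and some genes in wide use. The ranking of falls in CPM passed over 14 mitochondrial, ribosomal protein, haemoglobin or unnamed genes. The largest falls left were Malat1, a nuclear RNA (9409 and 3064 CPM, ratio 0.326), and Clu, a secreted chaperone of Sertoli cells (2500 and 650 CPM, ratio 0.260). Next were the actin gene Actb (2497 and 933 CPM, ratio 0.374) and Tmsb4x. Defb19 (2282 and 866 CPM, ratio 0.380), Aard (1423 and 429 CPM, ratio 0.301) and Cst12 (1492 and 546 CPM, ratio 0.366), all genes of Sertoli cells, and the matrix protein Sparc (1668 and 343 CPM, ratio 0.206) followed. Chchd2 (2413 and 1508 CPM) and the elongation factor Eef1a1 (3289 and 2482 CPM) had the falls ranked 9 and 10 and did not pass the 2-fold rule. At 144 h Sertoli-rich barcodes held 24.3% of the Eef1a1, 47.7% of the Actb and 49.3% of the Malat1 UMIs, against 95.2% for Clu.

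Of 30 listed Sertoli cell genes 29 were compared. Among these 22 were lower, 1 was higher and 6 were neither (all genes 20.2% lower and 19.4% higher), with a median log2 ratio of -1.75. The transcription factor Sox9 stood at 162 and 37.1 CPM (ratio 0.229), the inhibin subunit Inha at 588 and 149 CPM (ratio 0.253) and the tight junction gene Cldn11 at 208 and 54.3 CPM (ratio 0.261). Ptgds was higher (2.05 and 7.65 CPM, 3.74-fold). The summed level of the list was 11887 CPM at 144 h and 4063 CPM at 350.4 h, a ratio of 0.342. Barcodes at or above 10000 CPM of the list made up 38.9% of barcodes and 32.9% of UMIs at 144 h, and 16.6% and 11.8% at 350.4 h. The median of the list within them was 34834 and 30198 CPM. The barcode limit on mitochondrial share bears on this list: with under 20% in place of 50% the median log2 ratio was -2.86, and Sertoli-rich barcodes of at least 5000 UMIs had a median mitochondrial share of 15.2% at 144 h and 22.2% at 350.4 h.

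Retinoid genes make, bind or break down the signal for meiotic entry. They were lower in 10 of 16 cases (17 listed) and higher in 1 (all genes 20.2% and 19.4%). The retinoic acid hydroxylase genes Cyp26a1 (5.07 and 0.142 CPM, ratio 0.0280) and Cyp26b1 (112 and 24.0 CPM, ratio 0.215) and the uptake receptor Stra6 (22.9 and 1.79 CPM, ratio 0.0784) were lower. The synthesis enzyme gene Aldh1a1 was lower (319 and 80.1 CPM, ratio 0.251), while Aldh1a2 was not called (50.8 and 55.8 CPM). Lrat, which stores retinol as esters, was higher (1.56 and 9.13 CPM, 5.85-fold). Of 16 listed genes of the spermatogonial niche 14 were compared, of which 13 were lower and none was higher: the chemokine Cxcl12 stood at 46.6 and 1.67 CPM (ratio 0.0359), Gdnf at 3.43 and 1.18 CPM (ratio 0.344) and the KIT ligand Kitl at 77.9 and 23.1 CPM (ratio 0.296).

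Junction genes were lower in 10 of 15 cases, with the median at -1.66 (-2.72 with under 20% mitochondrial UMIs). The shares over all genes compared, 20.2% lower and 19.4% higher, stand beside every count of this paragraph. Occludin (Ocln) stood at 26.1 and 3.79 CPM (ratio 0.145). The nectin gene Pvrl3 (24.1 and 109 CPM, 4.54-fold) and Cldn3, a claudin of the forming blood-testis barrier (3.41 and 8.28 CPM, 2.43-fold), were higher. Of 21 collagen and basement membrane genes 19 were lower and none was higher (median -2.28, and -2.86 with under 20% mitochondrial UMIs), for example Col4a1 (125 and 30.7 CPM, ratio 0.246) and Lamb1 (68.9 and 8.02 CPM, ratio 0.116). Cholesterol synthesis genes stayed near level, with 14 of 15 called neither.

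The 15 largest ratios downward among genes of at least 50 CPM were led by Shisa8, at 93.7 and 2.17 CPM (ratio 0.0232, interval 0.0201 to 0.0267), and 95.4% of its UMIs at 144 h lay in Sertoli-rich barcodes, as did 96.8% of those of Cidea and 94.2% of those of Tesc. The imprinted genes Dlk1 (84.4 and 2.32 CPM, ratio 0.0274) and Meg3 (120 and 3.93 CPM, ratio 0.0329) and the steroid enzyme gene Hsd3b1 (58.6 and 2.48 CPM, ratio 0.0424) followed. Of the 227 Hsd3b1 UMIs at 350.4 h, 3 barcodes held 78.4%, and without them the level was 0.536 CPM. Then came the lipid droplet protein gene Cidea (126 and 5.64 CPM), Nrk (63.2 and 2.91 CPM), Itih5 (60.9 and 3.11 CPM), Htra3 (63.2 and 3.57 CPM) and the matrix proteoglycan gene Dcn (369 and 22.8 CPM, ratio 0.0616, interval 0.0589 to 0.0644). Wnt6 (81.8 and 5.17 CPM), gelsolin Gsn (135 and 9.04 CPM), Tesc (67.2 and 4.44 CPM), Ebf1 (72.4 and 4.81 CPM), the selenium carrier Sepp1 (75.3 and 5.07 CPM) and collagen Col1a1 (226 and 15.9 CPM) had ratios from 0.0632 to 0.0703.

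By cell type, 11 of 12 interstitial stromal genes were lower (median log2 ratio -3.46), 12 of 13 Leydig cell genes (14 listed) (-2.67), 8 of 12 peritubular myoid genes (-1.40), all 10 endothelial genes (-3.70) and 7 of 8 vessel mural genes (-2.10). None of these lists had a higher member, while over all genes compared 20.2% were lower and 19.4% higher. The Leydig genes compared differed in the share of their 144 h UMIs from Sertoli-rich barcodes. It ranged from 1.8% (Hsd3b6) to 93.0% (Hsd17b3), with Star at 20.1%, Scarb1 at 65.2% and Nr5a1 at 75.4%. How much of the Leydig count came with the fall in Sertoli UMIs was not tested. Star, which brings cholesterol into mitochondria for steroid synthesis, stood at 30.9 and 4.22 CPM (ratio 0.137), smooth muscle actin Acta2 at 662 and 193 CPM (ratio 0.292) and the endothelial cadherin Cdh5 at 16.4 and 0.874 CPM (ratio 0.0532). Among 12 macrophage genes 8 were lower and Cd14 was higher (1.06 and 3.61 CPM, 3.41-fold). Of 10 listed lymphocyte genes 8 were compared and 7 were lower (median -3.79, and -2.71 over barcodes of at least 5000 UMIs), and all 6 red blood cell genes were lower (summed level 2927 and 572 CPM). With every barcode weighing the same the medians moved from -3.70 to -2.88 for endothelial, from -1.41 to -0.24 for macrophage and from -3.79 to -4.71 for lymphocyte genes. Genes of the response to dissociation, such as Fos (354 and 133 CPM) and Ier2 (263 and 53.9 CPM), were lower in 10 of 13 cases beside these lists, and their part in the result was not tested.

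Set beside the other libraries, the 350.4 h sum held the highest level of several prophase lists. The synaptonemal complex list summed to 408, 1578, 3583, 2302 and 2172 CPM at 0, 144, 350.4, 556.8 and 763.2 h, and the piRNA list to 911, 1418, 3726, 2785 and 2743 CPM. Piwil1 stood at 2.65, 13.5, 545, 228 and 211 CPM in the same order. The pachytene list, by contrast, went on from 8797 to 20043 and 17329 CPM in the 2 later libraries. Each of these levels rests on 1 library.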

How the data were processed

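Droplet-based single-cell RNA sequencing of testis cells gave 1 library per time; the 144 and 350.4 h libraries are compared here, each 1 group by its title. The deposited matrices give unnormalized UMI counts for each gene in each barcode, and per the file headers the software was Cell Ranger 3.0.2. The submitters' processing notes name mm10 and Seurat 4.3.0.1, without their role. No source used here states the settings of alignment, counting or barcode calling.

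Counts were summed per gene over barcodes with at least 1000 UMIs and under 50% mitochondrial UMIs, which removed 2139 and 280 barcodes at 144 h and 1638 and 427 at 350.4 h. No cells were clustered and doublets were not removed. Ratios of CPM have exact conditional binomial 95% intervals (scipy 1.17.1), and a gene needed 50 UMIs in the library where it was higher. UMI intervals cover counting error only. Intervals of barcode shares describe barcodes of 1 library and cover no differences between animals or preparations. The calling rule was tested on simulated data. edgeR 4.0.16 gave TMM factors as another scaling, with no test. Chromosomes came from GENCODE M21 and promoters from RefSeq, both GRCm38.

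Named genes were the 15 in each direction ranked by the interval bound nearest 1 among genes of at least 50 CPM, the 10 largest CPM rises and falls, and members of 35 lists, leaving out mitochondrial, ribosomal protein and haemoglobin genes and unnamed gene models (1 and 0 by ratio, 1 and 14 by difference). Members and lists were chosen with earlier results of these data known. The alternatives tried changed the barcode limits, weighting, scaling, minimum counts and calling rule. Some list members are not reported here by name.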

Additional observations from a re-analysis of the deposited data

How the results depend on the processing

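Of 30 recounts of higher or lower genes under 15 alternatives, 29 stayed within 1.5 times the main count and none turned a call to the other direction. The exception was the stricter rule of a whole interval beyond 4-fold, which left 977 genes lower (2246 higher). TMM factors and median-of-ratios factors moved the median log2 ratio of all genes by 0.11 and 0.15, giving 3442 and 3507 higher and 3022 and 2906 lower genes. All 50 named genes kept their call under the 11 alternatives run on them, and no list median changed sign; 12 of 385 moved by 0.5 or more. Leaving out barcodes rich in elongating spermatid UMIs, an alternative chosen after seeing the data, left 2954 higher genes. No paired analysis was possible because each time has 1 library. Time, animals and preparation cannot be told apart with 1 library each, and low counts limit genes near 50 UMIs.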
